A study of Mus musculus with 24 samples.

Results

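Lungs of newborn mice (postnatal day 0, P0) with conditional deletion of Sin3a (CKO) were compared with control lungs of the same day. All libraries whose title gives postnatal day 0 were taken, which made 8 of the 24 libraries of the series, 4 control and 4 CKO. Control lungs are titled Tbx4rtta; tetocre; Sin3a F/+ and CKO lungs Tbx4rtta; tetocre; Sin3a F/F. Both groups therefore carry the transactivator and the Cre transgene, and by title a control can lose its floxed allele in the same cells in which a CKO lung loses both. Tbx4rtta drives Cre in lung mesenchyme once doxycycline is present, and pregnant females received it in their feed at embryonic day 12. RNA came from whole lungs, so epithelial, endothelial and blood cells without Cre are in every library, and fewer cells of a type cannot be told apart from less RNA per cell. The remaining libraries, 4 control and 4 CKO at each of embryonic day 16 (E16) and postnatal day 3 (P3), were used for the comparison of stages alone. By title, E16 controls are Sin3a F/+ as at P0, while P3 controls are Sin3a F/F and carry both transgenes, which is the genotype given for CKO lungs.

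SIN3A is a scaffold that brings histone deacetylases to DNA-bound repressors, among them MAD and MNT, the antagonists of MYC, and it takes part in silencing E2F targets and germline genes. It has a paralog, SIN3B, that assembles a related complex. At birth the mesenchyme of the lung is forming alveolar fibroblasts, myofibroblasts that lay down elastin, pericytes and the smooth muscle of airways and vessels, while the epithelium switches from secreting fluid to absorbing it and releases surfactant.

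Each animal identifier in the labels has a prefix, and each of the 4 prefixes (9605, 9903, 9468 and 1022) occurs once in each genotype at P0. Libraries were paired by it, as pair 9605 and so on, although the labels do not say what the prefix marks. The 8 libraries held 27.02 to 36.35 M counts each and detected 22275 to 24313 genes. Levels are given as CPM, the depth-scaled read count of a gene after TMM scaling of the libraries. Markers of lung epithelium were high in all 8 libraries, with alveolar type 2 genes summing to 15210 CPM or more. Some libraries held RNA of other tissues. The summed level of 22 thymus markers was 3655 CPM in the control and 2762 CPM in the CKO library of pair 9605, and 93.3 to 106 CPM in the other 6, where 0 to 3 of the markers had no counts. The CKO library of pair 9468 had 1342 CPM of skeletal muscle markers, against 46.7 to 181 CPM elsewhere, and 437 CPM of cartilage markers, against 73.2 to 136 CPM. The control of pair 9605 also had 722 CPM of oesophageal and squamous markers, against 22.3 to 75.5 CPM, and 608 CPM of brown fat markers, against 59.0 to 186 CPM. Both libraries of pair 9903 were high in immediate early genes, at 5749 CPM in control and 6297 CPM in CKO, against 1773 to 2944 CPM. Xist was present in one library of pair 9605 (1475 CPM in control, 0.214 CPM in CKO) and was either present in both or near 0 in both libraries of each other pair. Values without one of these pairs are given below where leaving it out changed a call or its weight was large.

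**Figure D1:**
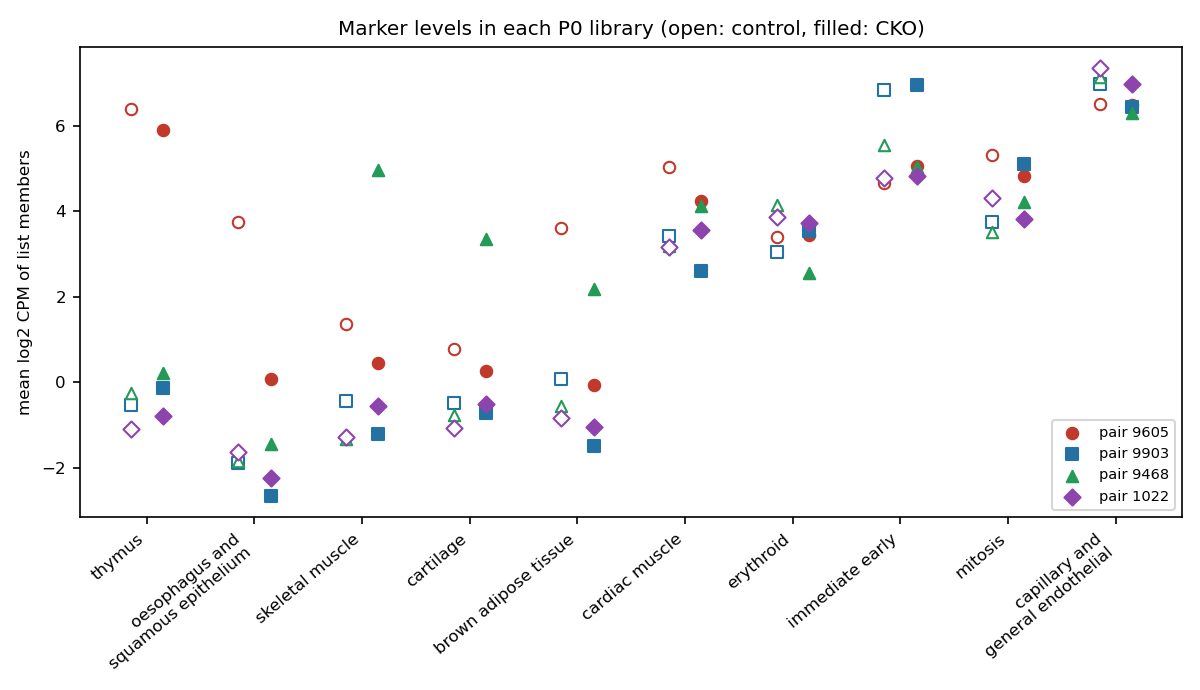
Mean log2 CPM of the members of 10 gene lists (vertical axis) in each P0 library, with open symbols for control and filled symbols for CKO lungs and 1 symbol shape for each identifier prefix. Pair 9605 stands apart in thymus markers (6.40 and 5.89), the CKO library of pair 9468 in skeletal muscle (4.96) and cartilage (3.34), and pair 9903 in immediate early genes (6.84 and 6.94).

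Sin3a itself, the targeted gene, overlapped between the groups. Controls had 99.7, 103, 82.1 and 86.6 CPM in pairs 9605, 9903, 9468 and 1022, and CKO lungs had 108, 109, 94.7 and 83.8 CPM in that order of pairs, which is kept throughout. The log2 fold change, CKO minus control here and in all that follows, was 0.09 ± 0.11 (SE; adjusted p = 0.813, edgeR). A whole-gene count takes in exons outside the floxed segment, cells without Cre and reads of 2700012I20Rik and Man2c1os, which overlap Sin3a on the other strand, so it does not check the labels. Sin3b had 105, 66.0, 83.8 and 79.2 CPM in controls and 139.7, 86.0, 102 and 96.6 CPM in CKO lungs. It was higher in the CKO member of every pair, by 0.29 to 0.41 on the log2 scale, but control and CKO levels overlapped and the fitted change of 0.34 ± 0.11 did not pass in the paired fit (adjusted p = 0.298, edgeR), though it did in one edgeR fit of all 24 libraries (0.0276). Of 28 genes coding for SIN3 and deacetylase complex subunits and partners, 22 had a positive change and 6 a negative one, with a median of 0.14 and none called in the paired fit. Sin3b was the 1 called in the fit of 24 libraries. Ing1, a chromatin reader of the complex, was 44.1 to 49.6 CPM in controls and 57.0 to 66.0 CPM in CKO lungs (0.39 ± 0.12, adjusted p = 0.286, edgeR). Mnt, a DNA-binding repressor that recruits SIN3 proteins, was higher in all 4 pairs (0.58 ± 0.21, adjusted p = 0.327, edgeR).

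The P0 libraries ask what loss of Sin3a in the mesenchyme changes in the lung by birth. In the paired fit 7 of 17198 genes were called at an adjusted p under 0.05 (0.0407%), of which 1 was higher (0.00581%) and 6 were lower (0.0349%) in CKO lungs. The higher one was Cyp46a1, cholesterol 24-hydroxylase. The lower ones were Phex, a membrane endopeptidase of phosphate homeostasis, Lepr, the leptin receptor, the long noncoding gene AI838599 and the predicted loci Gm26825, Gm15459 and Gm9008. At an unadjusted p under 0.05 there were 2069 genes (12%), 1016 of them higher (5.91%) and 1053 lower (6.12%).

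Cyp46a1 (ENSMUSG00000021259, mm10 chromosome 12, 108334381 to 108362234) had 1.06, 4.13, 1.75 and 3.29 CPM in controls. CKO lungs had 7.77, 36.1, 12.4 and 19.8 CPM, and the lowest of them was above the highest control. The rise was 2.85 ± 0.19 on the log2 scale (SE; adjusted p = 0.00424, edgeR), with means of 2.56 ± 1.41 CPM in controls and 19.02 ± 12.4 CPM in CKO lungs (SD, n = 4). No other annotated transcript shared a stretch of 31 bases with it. Its call was lost when pair 9903 was left out (adjusted p = 0.0699) and when pairs were not used (adjusted p = 0.187, with a change of 2.89), while in the other 3 fits that left out a pair adjusted p was 0.0111 to 0.0439.

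Phex (ENSMUSG00000057457, chromosome X, 157162075 to 157415312) had 22.2, 65.4, 34.3 and 48.3 CPM in controls and 6.41, 23.8, 12.99 and 19.8 CPM in CKO lungs. Each CKO lung was below its own control, although the highest CKO value lay above the lowest control. Phex fell by 1.48 ± 0.15 on the log2 scale (adjusted p = 0.0445, edgeR). Lepr (ENSMUSG00000057722, chromosome 4, 101717404 to 101815352) had 25.8, 70.5, 35.1 and 43.5 CPM in controls and 8.52, 31.9, 12.7 and 16.8 CPM in CKO lungs, with the same order of pairs and the same overlap. It fell by 1.39 ± 0.14 (adjusted p = 0.0464, edgeR). Both genes were lowest in pair 9605 and highest in pair 9903 in each genotype. Neither kept its call when any of the 4 pairs was left out (adjusted p = 0.0621 to 0.248 for Phex and 0.0738 to 0.184 for Lepr), nor without the pairing (0.458 and 0.550). Phex is X-linked, and with the Xist level in the fit its change was -1.38 (adjusted p = 0.0846, edgeR). Xist differs mainly within pair 9605, so this fit came close to leaving that pair out (-1.39, adjusted p = 0.0742, edgeR). It cannot tell sex apart from what else differs within pair 9605.

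AI838599 (ENSMUSG00000085180, chromosome 4, 3242055 to 3258092), annotated as a lincRNA, had 3.40, 10.1, 10.3 and 14.3 CPM in controls and 0.43, 0.61, 0.95 and 1.93 CPM in CKO lungs. The groups did not overlap, and the fall was 3.33 ± 0.27 on the log2 scale (-3.33, adjusted p = 0.0125, edgeR). Its call was lost without pair 9605, 9903 or 1022 (adjusted p = 0.0742, 0.0756 and 0.0537) and without the pairing (0.143).

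The 3 predicted loci are named because they were called, and their counts are uncertain. Gm26825 (chromosome 5, 5781530 to 5783636) had 146 to 163 CPM in controls and 2.33 to 4.32 CPM in CKO lungs (-5.67 ± 0.21, adjusted p = 0.000196, edgeR). Gm15459, on the opposite strand of the same segment (5781615 to 5783555), had 78.1 to 101 CPM and 14.03 to 17.5 CPM (-2.48 ± 0.15, adjusted p = 0.00424, edgeR). Of the 31-base stretches in their transcripts, read on either strand, 87.0% and 91.9% also occur in transcripts of Hspa8, a constitutive heat shock chaperone, and 91.4% and 95.5% in each other. The strand of a match was not kept, so these shares do not say which locus matches Hspa8 in its own orientation. Gm9008 (chromosome 6, 76495432 to 76497784), of which 75.3% is shared with Rnf26, had 3.60 to 4.01 CPM in controls and 0 to 0.036 CPM in CKO lungs (adjusted p = 0.00942, edgeR). Gm15459 lost its call without pair 9903 (adjusted p = 0.0699) and Gm9008 without pair 9605 (0.0742) or 9903 (0.0756), while Gm26825 kept it whichever pair was left out (0.000674 to 0.00363). How reads were divided among such copies cannot be seen in the deposited counts. The 31-base overlap of Phex and Lepr with any other gene was at most 0.577% and 2.17%, and that of AI838599 at most 2.95%.

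The number of calls depended on how the spread was estimated. Without the pairing 7 genes were also called (0.0407%), but the fits shared 3 genes, the predicted loci. The biological coefficient of variation was 0.251 with pairs and 0.389 without. DESeq2 with the same pairs called 553 genes (3.22%), 275 higher (1.6%) and 278 lower (1.62%), and limma-voom 10 (0.0581%). A single edgeR fit of all 24 libraries, blocked by prefix within each stage, called 777 of 18415 genes at P0 (4.22%), 463 higher (2.51%) and 314 lower (1.71%). It takes a single spread per gene from E16, P0 and P3 together, although the spread between replicates differs by stage. Each of these 3 fits called all 7 genes above. Without the blocks the fit of 24 libraries called 264 (1.43%), 6 of the 7 among them, the exception being Phex. At E16 and P3 some prefixes hold several libraries of a genotype, unevenly at P3, so blocks there are not pairs. In pairs 9903 and 1022 alone, which lack the thymus, muscle and cartilage RNA, 2 genes were called, and 1 of them, Gm26825, was among the 7.

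The promoters of the 3 called protein-coding genes present in the RefSeq table, and that of Wdr86, the 1 ranked gene with an E-box, are shown as the sequence from 250 bases before to 50 bases after the start (RefSeq, GRCm38.p6, 5′ to 3′ on the gene's strand). Capitals mark a match to the E-box CACGTG, which MYC and its antagonists bind and which reads alike on both strands, or to the E2F core TTCCCGC on either strand (GCGGGAA on the other).
Cyp46a1, chr12:108334066-108334365, plus strand: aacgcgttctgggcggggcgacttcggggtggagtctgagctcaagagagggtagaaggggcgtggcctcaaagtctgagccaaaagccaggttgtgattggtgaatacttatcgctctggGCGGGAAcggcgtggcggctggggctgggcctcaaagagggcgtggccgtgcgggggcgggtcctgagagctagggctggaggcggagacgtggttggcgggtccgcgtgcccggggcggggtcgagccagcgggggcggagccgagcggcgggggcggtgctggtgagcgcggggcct
Phex, chrX:157415237-157415536, minus strand: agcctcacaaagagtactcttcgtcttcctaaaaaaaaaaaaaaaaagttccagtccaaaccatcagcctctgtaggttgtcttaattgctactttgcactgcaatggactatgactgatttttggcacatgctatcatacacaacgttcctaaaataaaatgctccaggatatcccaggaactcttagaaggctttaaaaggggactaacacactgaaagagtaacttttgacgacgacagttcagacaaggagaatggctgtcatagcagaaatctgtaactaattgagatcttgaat
Lepr, chr4:101717157-101717456, plus strand: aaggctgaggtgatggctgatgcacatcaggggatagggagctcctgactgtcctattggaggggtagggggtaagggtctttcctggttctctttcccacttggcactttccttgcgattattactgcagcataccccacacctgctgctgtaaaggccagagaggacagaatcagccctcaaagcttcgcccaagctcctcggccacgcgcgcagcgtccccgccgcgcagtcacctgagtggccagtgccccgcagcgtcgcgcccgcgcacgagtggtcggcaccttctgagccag
Wdr86, chr5:24730631-24730930, minus strand: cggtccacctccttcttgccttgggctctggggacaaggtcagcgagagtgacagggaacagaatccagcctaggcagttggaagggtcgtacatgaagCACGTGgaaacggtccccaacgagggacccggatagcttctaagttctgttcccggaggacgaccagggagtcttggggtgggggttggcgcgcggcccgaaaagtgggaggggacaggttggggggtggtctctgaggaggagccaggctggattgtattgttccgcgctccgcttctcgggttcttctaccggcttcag

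Cyp46a1 held the E2F core, and Phex and Lepr held neither motif. Of the 30 genes named by call or rank at P0, 19 had a promoter in the table. The E-box was in 0 of 9 promoters of ranked higher genes and 1 of 8 of ranked lower genes, against 7.15% of all 32851 promoters, and the E2F core was in 1 of 9 and 0 of 8, against 4.6%. The windows of Mme, Plekhg4 and Cacnb4 were 53673, 1952 and 687 bases away from the start of the GENCODE gene, so they may belong to other starts. The median number of CpG dinucleotides in 300 bases was 23.0 for the ranked higher and 17.5 for the ranked lower genes, with ranges of 9 to 39 and 3 to 40, and 7.0 over all promoters. All promoters were taken whatever the expression of their genes, while ranked genes had to be expressed. Promoters of expressed genes alone were not compared, so the CpG and motif figures over all promoters are not a matched background. A match describes these windows alone.

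Genes were then ranked by p among those whose 4 pairs moved one way and whose control and CKO levels did not overlap, which 791 genes met (4.6%), 447 higher (2.6%) and 344 lower (2%). Of the 12 highest ranked in each direction, all of the higher and 11 of the lower genes are named. Apart from Cyp46a1 none passed in the paired fit, where adjusted p was 0.0621 to 0.116 for the higher and 0.0621 to 0.0816 for the lower genes. All 24 passed at P0 in the fit of 24 libraries. That fit holds the same P0 libraries by which these genes were chosen, so their passing is no separate support. Without pair 9468 Asz1, Cacnb4, Slc36a2 and Slc7a10 passed in the paired fit (adjusted p = 0.0399, 0.0318, 0.0252 and 0.0465, edgeR), and Slc7a10 also without pair 1022 (0.0439). Several ranks hold genes that overlap a tested gene on the opposite strand (Shisa3 with Atp8a1, Evi5l with Prr36, Plekhg4 with Kctd19, Slc7a10 with Lrp3 and Cacnb4 with A430018G15Rik), so that without a stated strand setting their counts are less certain. The same holds for Rps18 (with Vps52), G6pdx (Ikbkg), Bmp6 (Txndc5), Gli1 (Arhgap9) and Tagln (Pcsk7) below, and Irgm2, Tgfbr3 and Foxf1 share their strand with another annotated gene there.

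Hmox1, haem oxygenase 1, which degrades haem, had 26.7, 27.6, 35.6 and 33.5 CPM in controls and 175, 62.0, 211 and 167 CPM in CKO lungs. The CKO lung of pair 9903 was the lowest of its group by a wide margin and still above every control (2.20 ± 0.26, adjusted p = 0.0693, edgeR). Without pair 9903 the change of Hmox1 was 2.51 and passed (adjusted p = 0.0471, edgeR). Shisa3, an inhibitor of WNT and FGF receptor maturation, had 11.1, 5.11, 11.6 and 7.92 CPM in controls and 30.9, 37.4, 37.5 and 41.8 CPM in CKO lungs. Its change of 2.10 ± 0.25 missed the threshold in the paired fit (adjusted p = 0.0693, edgeR) and passed without pairing (0.0425). Asz1, a germ cell gene of the piRNA pathway, had 0.87, 3.60, 2.65 and 1.57 CPM in controls and 3.79, 15.8, 7.5 and 8.11 CPM in CKO lungs, just clear of each other (2.03 ± 0.23, adjusted p = 0.0621, edgeR). Among 23 germline genes 8 were expressed enough to be tested, and 4 of them had a positive and 4 a negative change, with a median of -0.01. Asz1 was the 1 member of that list higher in all 4 pairs.

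Sema6c, a transmembrane semaphorin, had 4.54 to 7.17 CPM in controls and 10.7 to 15.9 CPM in CKO lungs (1.33 ± 0.17, adjusted p = 0.0799, edgeR). Plekhg4, a guanine nucleotide exchange factor, had 2.40 to 4.32 CPM and 7.30 to 9.71 CPM (1.36 ± 0.20). Dpf1, a subunit of a neuronal SWI/SNF chromatin remodeller, had 1.91 to 3.30 CPM and 5.19 to 6.98 CPM (1.31 ± 0.20). Tctn2, named for a protein of the ciliary transition zone, had 11.5 to 19.3 CPM and 28.6 to 46.3 CPM (1.07 ± 0.17). Its entry is annotated in GENCODE M21 as a processed transcript and not as protein-coding. Evi5l, a Rab GTPase-activating protein, had 26.7 to 37.8 CPM and 63.0 to 74.7 CPM (1.06 ± 0.15), and the kinase gene Sbk1 10.3 to 20.8 CPM and 24.9 to 40.3 CPM (0.95 ± 0.15). The ribosome assembly genes Rrp12 and Rcl1 completed the higher group and are taken up with their pathway.

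**Figure D2:**
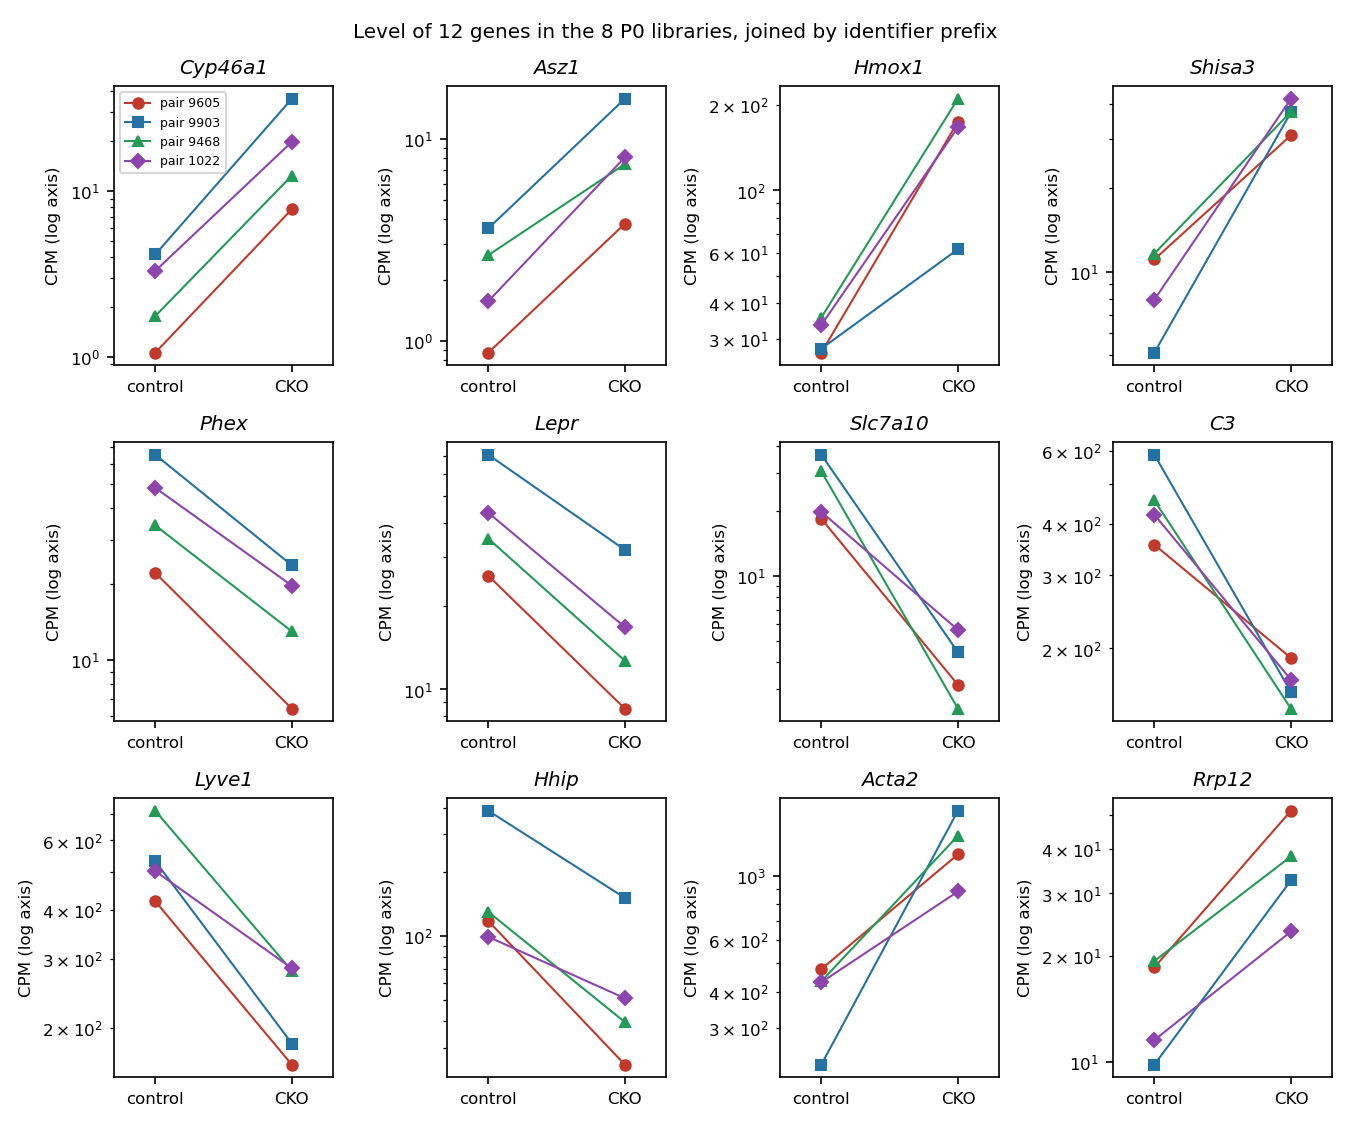
CPM (log axis) of 12 genes in the 8 P0 libraries, with a line joining the control and CKO library that share an identifier prefix. For Cyp46a1 the 4 lines run nearly parallel from 1.06 to 4.13 CPM up to 7.77 to 36.1 CPM, while for Phex and Lepr the groups overlap and each line falls.

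Among the genes ranked lower, Slc7a10, an amino acid transporter and a marker of alveolar fibroblasts, had 18.4, 36.3, 30.4 and 19.8 CPM in controls and 3.15, 4.46, 2.45 and 5.65 CPM in CKO lungs (-2.75 ± 0.31, adjusted p = 0.0621 paired and 0.0352 unpaired, edgeR). Slc36a2, a proton-coupled amino acid transporter, had 37.2, 73.8, 30.1 and 29.7 CPM in controls and 3.72, 10.8, 10.7 and 6.95 CPM in CKO lungs (-2.41 ± 0.30, adjusted p = 0.0693, edgeR). Both were well separated between genotypes in every pair. Cacnb4, a calcium channel subunit, had 8.08 to 28.7 CPM and 1.13 to 3.70 CPM (-2.88 ± 0.35), the most negative estimate of the 12 ranked lower.

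Pcolce2, which promotes the removal of procollagen propeptides, had 31.5, 39.3, 55.0 and 49.1 CPM in controls and 8.91, 3.98, 7.61 and 17.1 CPM in CKO lungs (-2.36 ± 0.32, adjusted p = 0.0816, edgeR). Dpt, the matrix protein dermatopontin, had 100.5, 141, 138 and 126 CPM in controls and 41.4, 27.6, 53.4 and 45.8 CPM in CKO lungs (-1.61 ± 0.20, adjusted p = 0.0693, edgeR). In both the CKO lung of pair 9903 was the lowest. C3, the central complement component, had 356, 587, 455 and 421 CPM in controls and 189.7, 157, 143 and 168 CPM in CKO lungs (-1.45 ± 0.18, adjusted p = 0.0693 paired and 0.0366 unpaired, edgeR), and Lyve1, the hyaluronan receptor of lymphatic endothelium, also found on some macrophages, had 420.4, 532, 714 and 501 CPM in controls and 161, 182, 279 and 284 CPM in CKO lungs (-1.28 ± 0.15, adjusted p = 0.0693, edgeR). Mme, the surface peptidase neprilysin, had 41.1 to 83.4 CPM and 8.38 to 33.9 CPM (-1.58 ± 0.21). Prkg2, a cGMP-dependent kinase, had 15.6 to 35.2 CPM and 4.22 to 9.35 CPM (-1.61 ± 0.18). Pts, an enzyme of tetrahydrobiopterin synthesis, had 23.2 to 31.6 CPM and 10.5 to 15.6 CPM (-1.21 ± 0.16), and Wdr86 13.6 to 17.4 CPM and 1.85 to 4.44 CPM (-2.39 ± 0.32).

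**Figure D3:**
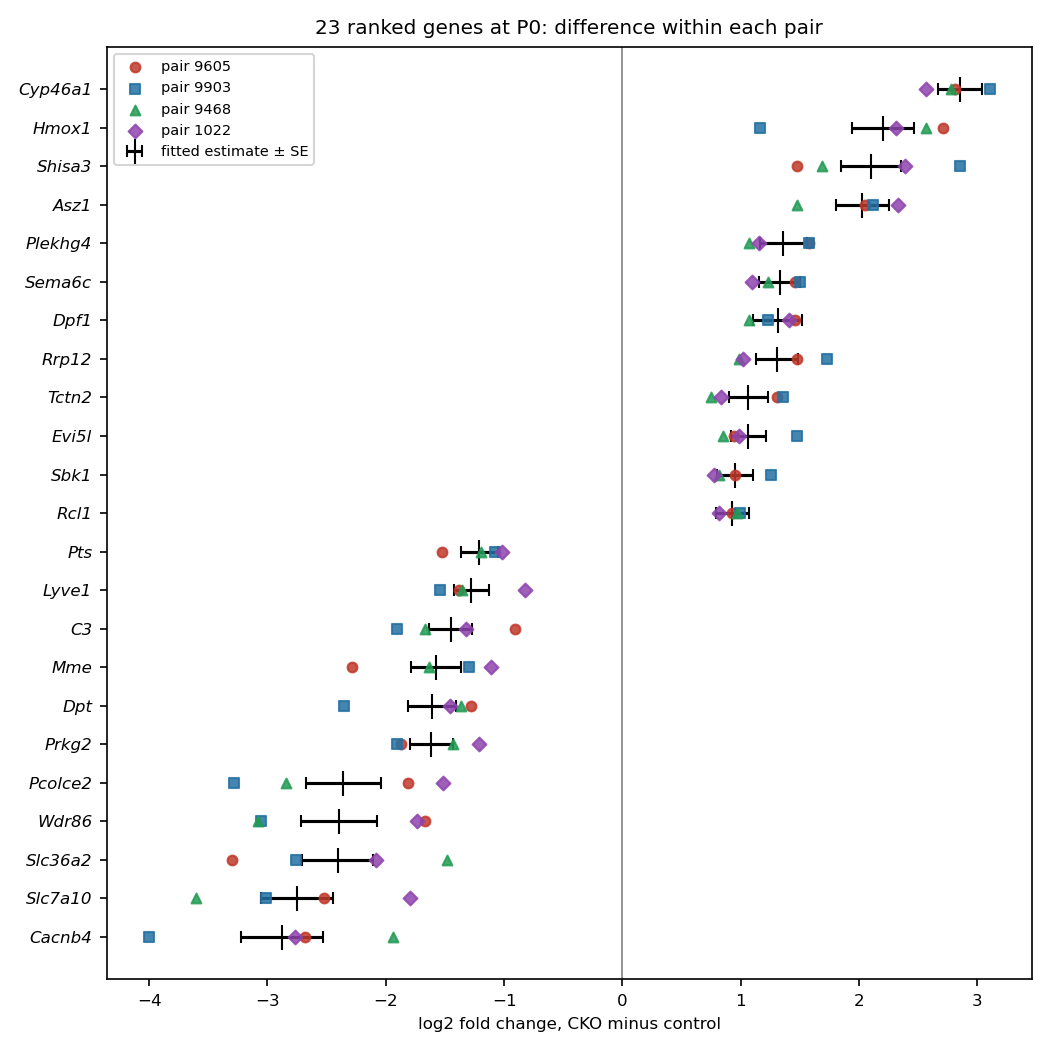
Log2 fold change, CKO minus control, within each pair (coloured points) and fitted over the 4 pairs (black bar ± SE) for the 12 genes ranked higher and 11 of the 12 ranked lower at P0. The within-pair points of a gene lie on one side of 0 by the way these genes were chosen, and those of Cyp46a1 lie close to its estimate of 2.85.

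Gene groups were described by their counts, beside the same counts over all genes tested: 46.2% of the 17198 genes had a positive change, the median was -0.03, and 22.5% moved one way in all 4 pairs (10.9% higher, 11.6% lower). No group below had a member called in the paired fit, so calls per group are those of the fit of 24 libraries, in which 4.22% of genes passed at P0. That fit shares its estimate of spread between stages, and whether this is too small for P0 was not tested.

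Fibroblast markers had mostly negative changes. Of 30 alveolar fibroblast markers, 24 had a negative and 6 a positive change (median -0.34), 9 were lower and 3 higher in all 4 pairs, and in the fit of 24 libraries 6 passed lower and 2 higher. Inmt, a methyltransferase, had 53.8, 75.9, 47.0 and 51.7 CPM in controls and 21.7, 5.51, 7.15 and 8.91 CPM in CKO lungs (-2.58 ± 0.37, adjusted p = 0.0876, edgeR). Enpp2, which makes lysophosphatidic acid, was 52.7 to 216 CPM in controls and 23.6 to 45.9 CPM in CKO lungs (-1.40 ± 0.23), with the control of pair 9903 well above the rest. Of 22 adventitial fibroblast markers 16 were negative (median -0.41, but 0.10 within pair 9468), 6 were lower and 3 higher in all 4 pairs, and 2 passed in each direction in the fit of 24 libraries. C3 and Dpt were among the negative ones, while Col14a1, a fibril-associated collagen, was higher in every pair (131, 348, 123 and 138 CPM against 216, 547, 242 and 198 CPM; 0.72 ± 0.12, adjusted p = 0.13, edgeR).

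Smooth muscle and myofibroblast genes were split. Acta2, smooth muscle actin, had 478, 224, 434 and 431 CPM in controls and 1184, 1672, 1372 and 883 CPM in CKO lungs. The groups were clear of each other, with a change of 1.71 ± 0.30 (adjusted p = 0.13 in the paired fit and 0.00288 in the fit of 24 libraries, edgeR). Hhip, a secreted hedgehog antagonist made by myofibroblasts, had 118, 386, 129.7 and 99.1 CPM in controls and 24.9, 151, 39.5 and 51.0 CPM in CKO lungs. Each pair was lower in CKO, though the levels overlapped because pair 9903 was high in both genotypes (-1.56 ± 0.21, adjusted p = 0.0816, edgeR). Of the 23 members tested, 11 were positive and 12 negative (median -0.11), and the sign of this median turned in 7 of 25 other fits. Stc1, a secreted glycoprotein, was lower in all pairs (-0.69 ± 0.15). Of 15 pericyte markers 11 were negative (median -0.27), with Cox4i2, a subunit of cytochrome oxidase, at 23.6 to 42.0 CPM in controls and 8.77 to 19.9 CPM in CKO lungs (-1.07 ± 0.25, adjusted p = 0.185, edgeR).

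Mesothelial markers had the most negative median of the lung cell types, -0.68, with 13 of 16 negative and 8 lower in all 4 pairs, and 3 passed lower in the fit of 24 libraries. Upk1b, a uroplakin, had 41.5, 30.4, 56.6 and 55.4 CPM in controls and 22.5, 9.46, 22.2 and 30.6 CPM in CKO lungs (-1.19 ± 0.18, adjusted p = 0.101, edgeR), and Upk3b had 62.1 to 105 CPM and 32.9 to 67.6 CPM (-0.88 ± 0.18). Aldh1a2, which makes retinoic acid, had 31.8 to 48.3 CPM and 13.1 to 27.9 CPM, without overlap (-0.96 ± 0.20, adjusted p = 0.16, edgeR). Matrix genes were of both signs. Of 22 elastic fibre genes 14 were negative (median -0.25, but 0.33 within pair 9605 and 0.03 within pair 1022), with Efemp1, a fibulin, at -0.55 ± 0.14 and the crosslinking enzyme Lox at 0.45 ± 0.12. Of 23 collagens 16 were negative (median -0.15, but 0.32 within pair 9605 and 0.01 within pair 1022), with Col4a3 at -0.54 ± 0.12 and Col12a1 at 0.83 ± 0.19. Left without pair 9468, the collagen median was -0.009 and the elastic fibre median -0.10.

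**Figure D4:**
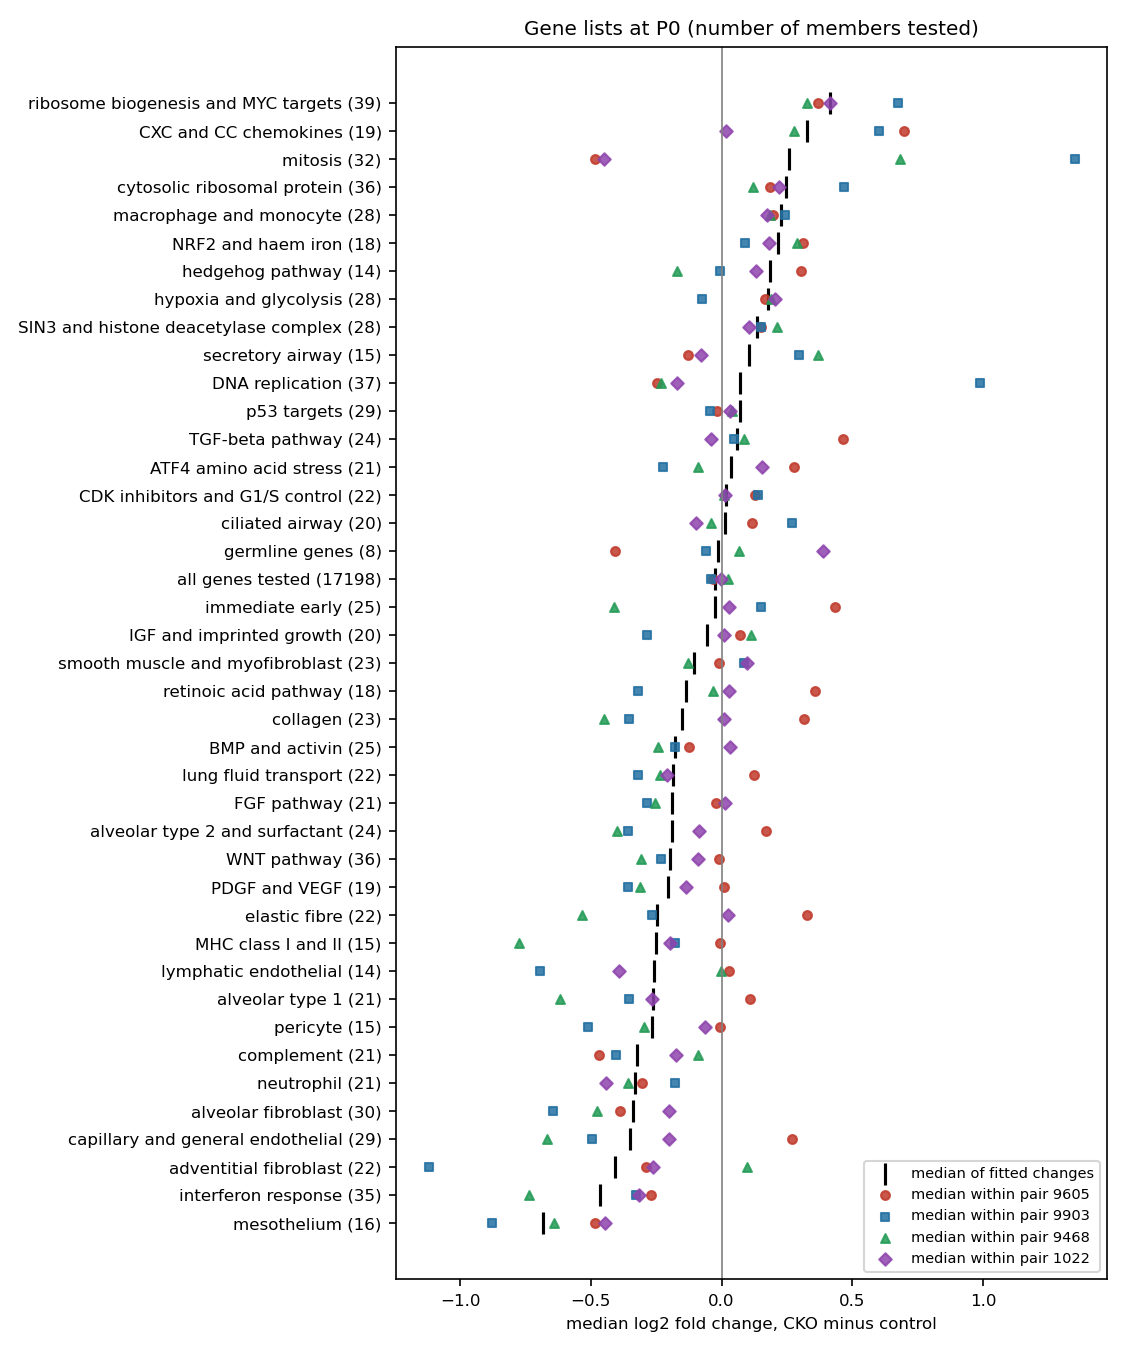
Median log2 fold change, CKO minus control, of the tested members of each gene group, fitted over the 4 pairs (black tick) and within each pair (coloured points), with the number of members in brackets. Ribosome biogenesis (0.41) and interferon response (-0.46) keep one sign in every pair, whereas mitosis ranges from -0.48 to 1.35 and endothelial genes are positive in pair 9605 alone.

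Alveolar epithelial and endothelial markers had mostly negative changes, with pair 9605 the other way, and airway markers did not share this. Of 21 alveolar type 1 markers 18 were negative, with a median of -0.26 that was 0.11 within pair 9605, and of 24 alveolar type 2 and surfactant genes 22 were negative, with a median of -0.19 that was 0.17 within pair 9605. Sftpa1, surfactant protein A, had 921, 1532, 1477 and 1438 CPM in controls and 601, 1208, 992 and 1326 CPM in CKO lungs (-0.41 ± 0.14, adjusted p = 0.318, edgeR), and Il33, an alarmin of type 2 cells, had 22.6 to 62.7 CPM and 15.9 to 36.7 CPM (-0.73 ± 0.15, adjusted p = 0.156). Of 15 secretory airway markers 12 were positive (median 0.10, but -0.13 within pair 9605 and -0.08 within pair 1022), and of 20 ciliated airway markers 11 were (median 0.01). Of 29 capillary and general endothelial markers 28 were negative, with a median of -0.35 that was 0.27 within pair 9605, and 3 passed lower in the fit of 24 libraries. Among them were Fibin (54.2 to 88.2 CPM against 27.5 to 66.1 CPM, -0.68 ± 0.19) and Kitl, the ligand of KIT (207 to 268 CPM against 102 to 243 CPM, -0.58 ± 0.16). The control of pair 9605, high in thymus, oesophageal and brown fat markers, had the lowest summed level of endothelial (4734 CPM, against 7325 to 7365 CPM in the other controls) and type 1 markers (7413 CPM, against 10020 to 11390 CPM). The part of this library's other tissues in those medians was not tested. Without pair 9605 and in the other 24 fits the medians of the alveolar type 1, alveolar type 2 and endothelial groups stayed negative. Pair 9468, whose CKO library held muscle and cartilage RNA, had the most negative medians of these groups (-0.62, -0.40 and -0.67). When pair 9468 was left out the medians were nearer to no change, at -0.16, -0.09 and -0.19 in that order. The part of that RNA was not tested either.

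Immune genes had different signs by cell type. Among 35 interferon response genes 34 had a negative change, with a median of -0.46 and a range of -0.74 to -0.27 over pairs, and 20 were lower in all 4 pairs against 11.6% of all genes. Their summed level was 529.5 to 618 CPM in controls and 356 to 537 CPM in CKO lungs, which just overlap. Oasl1, an antiviral oligoadenylate synthetase-like protein, was at -1.02 ± 0.28 (adjusted p = 0.248, edgeR) and Irgm2, an interferon-induced GTPase, at -0.60 ± 0.18 (adjusted p = 0.261). Of 21 neutrophil markers 17 were negative (median -0.33), with the granule gene Ngp at 24.03 to 37.9 CPM and 13.1 to 28.3 CPM (-0.68 ± 0.15). Of 28 macrophage and monocyte markers 20 were positive, with a median of 0.23 that was 0.17 to 0.24 in each pair, 9 were higher in all 4 pairs, and 4 passed higher in the fit of 24 libraries. C1qb, a chain of the first complement component, had 12.6, 24.4, 13.97 and 13 CPM in controls and 29.9, 43.6, 23.1 and 24.2 CPM in CKO lungs (0.93 ± 0.15, adjusted p = 0.12, edgeR). Lyz1, a lysozyme, went the other way (-0.82 ± 0.20, adjusted p = 0.189, edgeR). The summed level of the macrophage and monocyte list was lower in CKO in every pair. It was 2968, 4783, 3356 and 3379 CPM in controls and 1644, 3292, 1778 and 2992 CPM in CKO lungs. Lyz1, at 2506 to 4188 CPM in controls, made up most of this sum there. Complement genes were of both signs, 8 positive and 13 negative, and 11 of the 21 were lower and 5 higher in all 4 pairs. Of 19 chemokine genes 12 were positive (median 0.33), and 8 were higher in all 4 pairs. Ccl11, which attracts eosinophils, had 5.01, 3.19, 3.06 and 7.20 CPM in controls and 8.16, 67.3, 17.0 and 28.3 CPM in CKO lungs (2.36 ± 0.55, adjusted p = 0.178, edgeR), and Ccl2, which attracts monocytes, had 0.89 to 2.41 CPM and 4.62 to 17.3 CPM (2.29 ± 0.54, adjusted p = 0.179). In both, the CKO lung of pair 9903 was far above the others, and without that pair the changes of Ccl11 and Ccl2 were 1.70 and 1.69 (adjusted p = 0.559 and 0.570, edgeR).

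Genes of ribosome assembly had mostly positive changes. Of 39 genes of ribosome biogenesis and MYC targets, 36 had a positive change, with a median of 0.41 that was 0.33 to 0.67 within pairs, 21 were higher in all 4 pairs against 10.9% of all genes, and 14 passed higher in the fit of 24 libraries against 2.51%. Rrp12, which acts in export of ribosomal subunits, had 18.5, 9.82, 19.3 and 11.5 CPM in controls and 51.5, 32.7, 38.2 and 23.4 CPM in CKO lungs (1.303 ± 0.18, adjusted p = 0.0816, edgeR). Rcl1, which processes pre-ribosomal RNA, had 11.9 to 17.7 CPM and 20.98 to 33.7 CPM (0.93 ± 0.14, adjusted p = 0.0977). Fbl, the nucleolar methyltransferase fibrillarin, had 30.7 to 54.5 CPM and 61.4 to 90.4 CPM (0.84 ± 0.16), and Srm, spermidine synthase, 10.0 to 34.3 CPM and 25.03 to 64.0 CPM (0.93 ± 0.16). Of 36 cytosolic ribosomal protein genes 35 were positive (median 0.25, and 0.12 to 0.47 within pairs). Rps18 had 209 to 234 CPM in controls and 273 to 409.6 CPM in CKO lungs (0.48 ± 0.15, adjusted p = 0.286, edgeR).

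Cell cycle genes differed in sign between pairs. Mitosis genes had a median of 0.26 with 31 of 32 positive, but the median was -0.48, 1.35, 0.68 and -0.45 within the 4 pairs, and that of 37 DNA replication genes was -0.25, 0.99, -0.23 and -0.17. Among 22 genes of G1 and S phase control 11 were positive and 11 negative. Ccne1, cyclin E1, had 11.6, 2.25, 5.23 and 6.14 CPM in controls and 22.6, 19.9, 15.6 and 16.0 CPM in CKO lungs, without overlap (1.73 ± 0.35, adjusted p = 0.155, edgeR, and 0.0111 in the fit of 24 libraries). Cdkn2c, the CDK inhibitor p18, was higher in all 4 pairs (0.83 ± 0.28, adjusted p = 0.314). The 29 targets of p53 tested had 15 positive and 14 negative members (median 0.07), with Aen, a nuclease, at 28.8 to 38.5 CPM in controls and 45.2 to 65.8 CPM in CKO lungs (0.60 ± 0.13, adjusted p = 0.163, edgeR). Of 18 genes of the NRF2 and haem iron list 12 were positive (median 0.21). Beside Hmox1, Slc40a1, the iron exporter ferroportin, had 20.1 to 25.9 CPM and 35.2 to 53.8 CPM (0.94 ± 0.17, adjusted p = 0.132), and G6pdx, which supplies NADPH, 38.4 to 60.2 CPM and 64.9 to 88.5 CPM (0.68 ± 0.12, adjusted p = 0.13). Erythroid markers did not have one direction: the median over 16 tested was -0.31, but 0.39, 0.46, -2.0 and -0.07 within the 4 pairs, none was lower in all 4 pairs, and without pair 9468 the median was 0.16. Of 28 hypoxia and glycolysis genes 18 were positive (median 0.18), among them Eno1, enolase, at 211 to 295 CPM and 304 to 420.4 CPM (0.56 ± 0.12, adjusted p = 0.16).

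Signalling genes were described from ligands to targets. In the WNT pathway 26 of 36 genes were negative (median -0.20). The receptor gene Fzd4 was lower in each pair (-0.47 ± 0.12), as was Shisa2 (-1.18 ± 0.31, adjusted p = 0.218, edgeR), at 5.88 to 22.9 CPM in controls and 3.48 to 11.9 CPM in CKO lungs, so that Shisa2 and its paralog Shisa3 had opposite signs. In the FGF pathway 17 of 21 were negative (median -0.19), including Fgf10, the mesenchymal ligand of lung branching (31.2, 38.5, 37.3 and 26.8 CPM against 17.5, 28.5, 22.7 and 27.1 CPM, -0.49 ± 0.18). Pair 1022 showed almost no difference in Fgf10. In the TGF-β pathway 17 of 24 were positive (median 0.06). Thbs1, thrombospondin 1, which can activate latent TGF-β, was higher in each pair (0.99 ± 0.22), and the coreceptor Tgfbr3 was lower in each pair (-0.68 ± 0.18). Among 25 BMP and activin genes 15 were negative (median -0.18). Fst, the activin antagonist follistatin, had 4.98 to 7.43 CPM and 7.08 to 27.2 CPM (1.25 ± 0.24, adjusted p = 0.155), and the ligand Bmp6 had 12 to 16.5 CPM and 17.0 to 27.2 CPM, without overlap (0.70 ± 0.15, adjusted p = 0.168).

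In the hedgehog pathway 8 of 14 were positive (median 0.18), and its target genes differed in sign. Against the lower Hhip, Gli1, a transcription factor induced by the pathway, had 14.7, 32.0, 47.1 and 61.5 CPM in controls and 36.2, 99.7, 45.2 and 93.2 CPM in CKO lungs (0.87 ± 0.27, adjusted p = 0.286, edgeR), with pair 9468 at no difference, and Foxf1, a mesenchymal target, was at -0.59 ± 0.23 (adjusted p = 0.367). PDGF and VEGF genes were negative for 14 of 19 (median -0.21), led by Angpt1, the ligand of TEK, at 37.2 to 84.7 CPM and 10.4 to 49.6 CPM (-0.94 ± 0.25, adjusted p = 0.226). IGF and imprinted growth genes had 8 positive and 12 negative members (median -0.06), with Igfbp5 at 538 to 869.9 CPM and 213 to 660.0 CPM (-0.81 ± 0.17, adjusted p = 0.161) and the imprinted factor Plagl1 higher in each pair (0.56 ± 0.12, adjusted p = 0.169). Retinoic acid genes had 8 positive and 10 negative members (median -0.14), the negative Aldh1a2 beside the binding protein Crabp1, which was higher in each pair (1.21 ± 0.24). Immediate early genes were of both signs, 11 and 14 of 25 (median -0.03). Fosb had 6.01, 139, 7.95 and 2.13 CPM in controls and 11.2, 298, 11.5 and 4.59 CPM in CKO lungs, so that both lungs of pair 9903 were far above the rest (0.90 ± 0.15, adjusted p = 0.12, edgeR).

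Stages were compared by whether the P0 difference itself differed from that at E16 or P3, in one fit of 24 libraries. Of 18415 genes 1 was called between P0 and E16 (0.00543%), Cemip, which depolymerises hyaluronan. Its effect was 1.10 at P0 and -0.95 at E16, a difference of 2.04 ± 0.29 (adjusted p = 0.0446, edgeR). At P0 it had 35.3, 7.19, 14.5 and 12 CPM in controls and 92.0, 14.3, 37.4 and 17.8 CPM in CKO lungs, higher in each pair but overlapping, and at E16 30.7 ± 3.67 CPM in controls and 16.1 ± 5.91 CPM in CKO lungs (SD, n = 4). The call was lost without the prefix blocks and when pair 9605, 9903 or 9468 was left out of P0 (adjusted p = 0.111 to 0.255, edgeR). Pdlim1, AI838599 and Lepr were among the genes that ranked next, with differences of 0.61 ± 0.13, -3.64 ± 0.68 and -1.07 ± 0.23 (adjusted p = 0.326 for each, edgeR). AI838599 was hardly expressed at E16, with means of 0.52 CPM in controls and 0.67 CPM in CKO lungs. Between P0 and P3 no gene was called by edgeR or by limma-voom (0%), while 802 genes (4.36%) had an unadjusted p under 0.05 by edgeR, and between P0 and E16 873 did (4.74%). Cd300a (1.01 ± 0.19), Tagln (0.97 ± 0.19), Apol8 (1.83 ± 0.39) and Fmo2 (-1.46 ± 0.29) had the lowest p among named genes, with adjusted p = 0.413 for each (edgeR). Apol8 was low and very uneven between P0 libraries, at 2.84 ± 4.40 CPM in controls and 9.35 ± 14.1 CPM in CKO lungs (SD).

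The genes named at P0 had mostly the same sign in the other lungs. Of the 30 genes named by call or rank, 29 had at E16 and P3 the sign they had at P0 (96.7%), against 55.7% of all genes tested. The exception was AI838599, at 0.33 ± 0.50 at E16. Its level there was low, at 0.52 ± 0.22 CPM in controls and 0.67 ± 0.22 CPM in CKO lungs (SD), so that sign carries little weight. Of the 30, 3 were called in that direction at E16, all of them the predicted loci with uncertain counts and none of the 24 ranked genes, where 6 genes were called in all (0.0326%), and 5 at P3, where 10 were (0.0543%), 6 higher (0.0326%) and 4 lower (0.0217%). Cyp46a1 was at 1.84 ± 0.36 at E16, 2.87 at P0 and 2.72 ± 0.38 at P3 (adjusted p = 0.154 at E16 and 0.0199 at P3, edgeR). Asz1, Rcl1 and Pts also passed at P3, with changes of 2.19 ± 0.33, 1.06 ± 0.17 and -0.75 ± 0.12 (adjusted p = 0.0225, 0.0261 and 0.0249). Phex was at -0.97 ± 0.18 at E16 and -0.36 ± 0.18 at P3, and Lepr at -0.31 ± 0.16 and -0.37 ± 0.17. For neither gene was the difference between stages called.

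**Figure D5:**
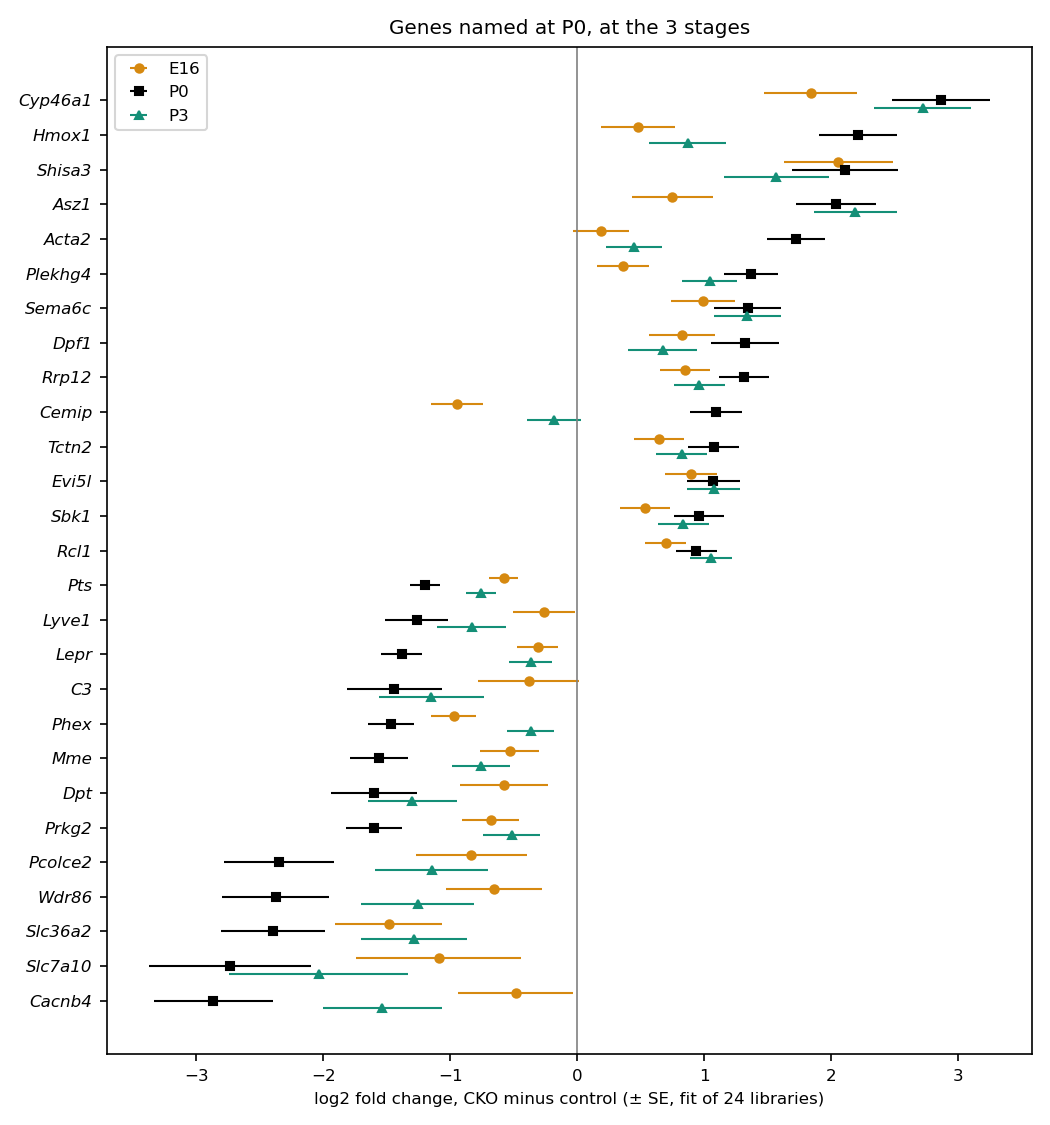
Log2 fold change, CKO minus control, ± SE at E16, P0 and P3 in one fit of 24 libraries, for 27 genes. Cyp46a1 is above 1.8 at each stage, and Cemip is 1.10 at P0 and -0.95 at E16.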

How the data were processed

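RNA of whole mouse lungs was sequenced as Illumina TruSeq libraries. Expected counts per gene were deposited by the authors as whole numbers. The submitters' processing notes name STAR 2.5.3a, RSEM 1.3.0, edgeR and mm10 without roles, and no source used here gives the annotation or the strand setting. From these deposited expected counts, CPM and log2 CPM (prior count 2) of genes at P0 were computed with TMM scaling over the genes tested there. Xist and the summed and mean log2 levels of lists were scaled over all 51912 genes, the mean log2 levels with a smaller prior count. Levels at E16 were scaled over the 18415 genes of the joint fit. The P0 libraries, 27.02 to 36.35 M counts, were fitted with edgeR 4.0.16 (R 4.3.3; filterByExpr, robust quasi-likelihood, Benjamini-Hochberg over all 17198 genes tested), with identifier prefix as a block. Deviations from group means correlated within prefixes at 0.578 (9903), 0.545 (9605), 0.638 (1022) and 0.000342 (9468), so the data bear out the pairing for 3 of the 4 prefixes, and the labels do not say what a prefix marks. Where libraries are not from separate litters, p-values measure the spread between these lungs alone. All 24 libraries entered a joint fit, blocked by prefix within stage, whose interaction terms compared the stages.

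Named genes are Sin3a and Sin3b, every called gene, the 12 higher and 12 lower genes of smallest p with a mean log2 CPM of at least 1, all 4 pairs one way and no overlap between genotypes (predicted loci and sex-linked markers left out), and up to 3 members of each of 48 lists. The groups, lists and tests were chosen with earlier results of these data known, so list counts are descriptions and no set test was run. Alternatives were the block, scaling, low-count filter, DESeq2 1.42.0, limma-voom (limma 3.58.1), non-robust dispersions, Xist as a covariate, the libraries in the fit and each pair or library left out. A fit of pairs 9903 and 1022 alone was added after seeing the data. The fits were tested on simulated data. Gene positions are from GENCODE M21, which held 51633 of the genes, and promoters from RefSeq. Some genes that the naming rule selects are not reported here.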

Additional observations from a re-analysis of the deposited data

Results flagged for a closer look

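Of 322 groups of 4 P0 libraries examined (113 genes and 48 lists in each genotype), 33 held a library that stood apart by Dixon's test, which chance alone gives in about 1 in 20 groups. Most were libraries of pair 9903 or 9605.

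In pair 9903 the control was the highest of its group for Col14a1 (347.9 CPM, others up to 137.8), Enpp2 (216.1, others up to 63.77), Hhip (386.5, others up to 129.7), Lox (601.9, others up to 276.6), Hk2 (75.47, others up to 25.74), C1qb (24.44, others up to 13.97), Lyz1 (4188, others up to 2786) and Fosb (139.3, others up to 7.949). It was the lowest for Kcnk3 (38.09 CPM, others from 56.32). The CKO lung of that pair was the highest for Col14a1 (547.0 CPM, others up to 242), Fosb (297.8, others up to 11.52), Ccl2 (17.35, others up to 6.712), Ifi44 (12.52, others up to 2.582) and Rps18 (409.6, others up to 296.4). By mean log2 CPM of a list, it was highest for cytosolic ribosomal protein genes (9.246, with its control at 8.82 also the highest), immediate early genes (6.945) and p53 targets (4.681).

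In pair 9605 the control was the highest for Ltf (100.1 CPM, others up to 37.37) and the lowest for Sftpa1 (921.3, others from 1438) and Tctn2 (11.53, others from 18.02). The CKO lung was the highest for Aen (65.76 CPM, others up to 48.62) and Cdk2 (100.5, others up to 82.95) and the lowest for Col4a3 (143.8, others from 261.3). By mean log2 CPM, thymus markers were highest in both (6.396 in control, 5.889 in CKO) and macrophage markers lowest in both (3.221 and 3.555). Cardiac muscle (5.04) and oesophageal markers (3.736) were highest and lung fluid transport genes (5.718) lowest in the control, and ATF4 stress genes (4.024) were highest in the CKO lung. In pair 1022 the CKO lung was the highest for Pts (15.59 CPM, others up to 10.92).

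The effect on Cemip differed between P0 and E16 by 2.04 on the log2 scale in the interaction test.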

How the results depend on the processing

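The paired fit called 7 genes at P0 (1 higher, 6 lower). Without the replicate block it called 7 (2 and 5) and with the title number as block 2 (0 and 2). With library size alone 5 were called (1 and 4), without a filter 58 (17 and 41), with Xist as a covariate 3 (1 and 2), by DESeq2 553 (275 and 278) and by limma-voom 10 (3 and 7). Median-of-ratios scaling, a filter at 1 CPM and non-robust dispersions left 7. Leaving out a pair gave 2 to 14 calls (1 to 2 higher, 1 to 12 lower): 3 without pair 9605, 2 without 9903, 14 without 9468 and 5 without 1022. Leaving out 1 library without the block gave 3 to 6 (0 to 2 higher, 3 to 5 lower). Pairs 9903 and 1022 alone gave 2 (0 and 2). The fit of 24 libraries called 777 (463 and 314), or 264 (165 and 99) without the block. The causes were not tested. Xist as a covariate came close to leaving out pair 9605, so those alternatives are not separate. Over 25 alternatives the call was lost in 12 for Cyp46a1, 15 for AI838599, 17 for Lepr, 18 for Phex, 5 for Gm9008, 2 for Gm15459 and 0 for Gm26825, and none of these turned sign. Fosb turned to -2.10 without CKO replicate 2 and Nr4a2, a member of the same immediate early list, to 0.32 without control replicate 1, both without the block. Of 48 list medians 25 kept one sign throughout. Between P0 and E16 the 1 call, Cemip, became 0 calls without the block and with median-of-ratios scaling (adjusted p = 0.0505), and 0 to 2 on leaving out a pair. Between P0 and P3 no alternative run called a gene. With 4 pairs, the changes of single genes at a few CPM are limited by counting error as well.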
